A study of Homo sapiens with 16 samples.

Results

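H3K27ac peaks were examined at 8 genes of chromosome band 9p21 in K562 cells, namely CDKN2A, CDKN2B, MTAP, IFNB1, IFNE, KLHL9, DMRTA1 and MLLT3, which were chosen by symbol and position rather than by peak values. They are 8 of 19974 protein-coding genes annotated on chromosomes 1 to 22 and X. A gene was assigned every peak that shared at least 1 bp with its body or the 10 kb on either side (its window), in any of 14 peak lists. H3K27ac, acetylation of lysine 27 on histone H3, marks active promoters and enhancers. All libraries were made from untreated, fixed K562, an established human erythroleukemia line derived from chronic myelogenous leukemia. The fixed-antibody arm comprised 7 libraries that all received 0.25 µg of antibody. Their chromatin, measured by its DNA (DNA_chrom), was 312, 625, 1250, 2500, 5000, 10000 or 20000 ng, at antibody titers of 32, 16, 8, 4, 2, 1 and 0.5. The normalized arm comprised 7 libraries from the same amounts of DNA_chrom with the antibody scaled to titer 1. A library is named by DNA_chrom in µg and titer, as in 0.31-T32. There was 1 library per condition apart from 10-T1a and 10-T1b, which share amount and titer. Nothing in the labels says that the libraries came from separate cultures, and the paper describes the amounts as aliquots of prepared chromatin. The tests below thus compare libraries and not replicate cultures. A separate input library served each arm, so the arms cannot be told apart from their inputs, and in the fixed-antibody arm titer falls as DNA_chrom rises. The 14 lists held 64083 to 82143 peaks at a q-value of at most 1% (a -log10 q of 2 or more), and the lists themselves do not hold the read depth.

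These genes have well-known roles. CDKN2A encodes p16INK4a, an inhibitor of CDK4 and CDK6 that keeps RB active, and, from an upstream first exon, ARF, which inhibits the ubiquitin ligase MDM2. CDKN2B encodes p15INK4b, a related CDK4 and CDK6 inhibitor. MTAP cleaves methylthioadenosine in the methionine salvage pathway. IFNB1 and IFNE are type I interferons, the former induced by viral infection and the latter expressed in epithelium of the reproductive tract. KLHL9 is a substrate adaptor of the CUL3 ubiquitin ligase. DMRTA1 is a DM-domain protein, and MLLT3 (AF9) is a reader of acylated histones that works with the super elongation complex and DOT1L. The segment around CDKN2A is often lost in leukemia, and K562 is known to lack both copies of CDKN2A. Copy number was not measured here. A stretch with no peak is a statement about peaks, and its edges are edges of peaks rather than breakpoints.

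No peak lay in the window of any of the 8 genes in any of the 14 lists. Of the 1065840 peaks at a q-value of at most 1%, 0 fell in these windows, which together span 617.844 kb. The full deposited lists, which go up to a q-value of 5% and hold 1171964 peaks, also had 0. The count was therefore 0 for CDKN2A, CDKN2B, MTAP, IFNB1, IFNE, KLHL9, DMRTA1 and MLLT3 alike in all 7 fixed-antibody and all 7 normalized libraries, and the arms did not differ at these genes. Over all protein-coding genes, 25.5% (5090 of 19974) had no peak in any list, 61.4% (12271 genes) had one in all 14 lists and 13.1% (2613 genes) had one in 1 to 13 lists. A gene without a peak is thus common, and the absence at any 1 of the 8 genes is not unusual by itself. The windows of all protein-coding genes together held 37.2 to 47.5 peaks per Mb per list, with a median of 44.8, and peaks covered 1.92% to 4.33% of them.

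The promoter sequences of 5 genes are shown because their CG content, and not only their names, sets CDKN2A, CDKN2B and MTAP apart from IFNB1. FOCAD, the neighbour at the left edge, carries a peak at a promoter that holds more CG than any of these, so it is not a matched comparison. Each is the 250 bases upstream of an annotated start site, from RefSeq in GRCh38.p14, written 5′ to 3′ on the gene's own strand with CG dinucleotides in capitals. FOCAD is at chr9:20684009-20684258 (plus strand) and MTAP at chr9:21802386-21802635 (plus strand). CDKN2A has an upstream start, that of the ARF transcript, at chr9:21995325-21995574 (minus strand) and a downstream start, that of the p16INK4a transcript, at chr9:21974858-21975107 (minus strand). CDKN2B is at chr9:22009306-22009555 and IFNB1 at chr9:21077943-21078192 (both minus strand).
FOCAD: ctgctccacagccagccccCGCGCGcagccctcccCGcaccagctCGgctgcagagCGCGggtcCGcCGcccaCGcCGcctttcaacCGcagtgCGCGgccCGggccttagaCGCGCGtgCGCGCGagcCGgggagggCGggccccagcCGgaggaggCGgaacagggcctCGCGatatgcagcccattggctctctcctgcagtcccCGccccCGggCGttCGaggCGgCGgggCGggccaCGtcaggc
CDKN2A upstream start: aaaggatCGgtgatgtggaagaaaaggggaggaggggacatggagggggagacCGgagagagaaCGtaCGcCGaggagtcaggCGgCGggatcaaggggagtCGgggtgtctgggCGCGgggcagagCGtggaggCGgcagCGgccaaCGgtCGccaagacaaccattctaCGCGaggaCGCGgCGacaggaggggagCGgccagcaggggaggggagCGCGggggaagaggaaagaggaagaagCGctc
CDKN2A downstream start: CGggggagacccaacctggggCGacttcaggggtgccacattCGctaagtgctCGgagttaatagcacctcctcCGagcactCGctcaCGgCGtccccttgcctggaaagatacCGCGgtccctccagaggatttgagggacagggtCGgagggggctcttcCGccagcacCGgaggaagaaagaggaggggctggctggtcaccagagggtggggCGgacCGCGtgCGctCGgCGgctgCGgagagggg
CDKN2B: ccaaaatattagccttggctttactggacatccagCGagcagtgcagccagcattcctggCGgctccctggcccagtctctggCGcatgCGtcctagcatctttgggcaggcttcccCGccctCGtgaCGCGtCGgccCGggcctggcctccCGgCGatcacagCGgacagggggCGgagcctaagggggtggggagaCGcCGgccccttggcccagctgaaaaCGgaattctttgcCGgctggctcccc
MTAP: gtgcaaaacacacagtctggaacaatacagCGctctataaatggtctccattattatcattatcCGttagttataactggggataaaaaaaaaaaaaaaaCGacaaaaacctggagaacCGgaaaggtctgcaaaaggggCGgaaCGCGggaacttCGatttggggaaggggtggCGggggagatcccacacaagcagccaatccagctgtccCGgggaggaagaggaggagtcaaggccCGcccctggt
IFNB1: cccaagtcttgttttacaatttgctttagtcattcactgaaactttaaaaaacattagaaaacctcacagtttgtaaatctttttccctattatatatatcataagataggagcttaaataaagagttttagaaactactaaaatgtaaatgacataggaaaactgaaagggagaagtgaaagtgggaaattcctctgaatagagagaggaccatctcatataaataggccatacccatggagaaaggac
The FOCAD promoter held 35 CG dinucleotides in these 250 bases. The CDKN2A promoters held 24 at the upstream and 20 at the downstream start, that of CDKN2B held 18 and that of MTAP held 11. The IFNB1 promoter held 0.

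CDKN2A and the genes next to it lay in 1 long stretch without a peak. Over all 14 lists this span ran from chr9:20722313-26888244, a length of 6165932 bp. It extended 1245440 bp from CDKN2A toward lower coordinates and 4892921 bp toward higher ones. The full deposited lists gave the same span to the base. Of the 8 genes, 7 lay inside it, and MLLT3 lay in a separate peak-free span, chr9:19464917-20683414, of 1218498 bp.

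**Figure D1:**
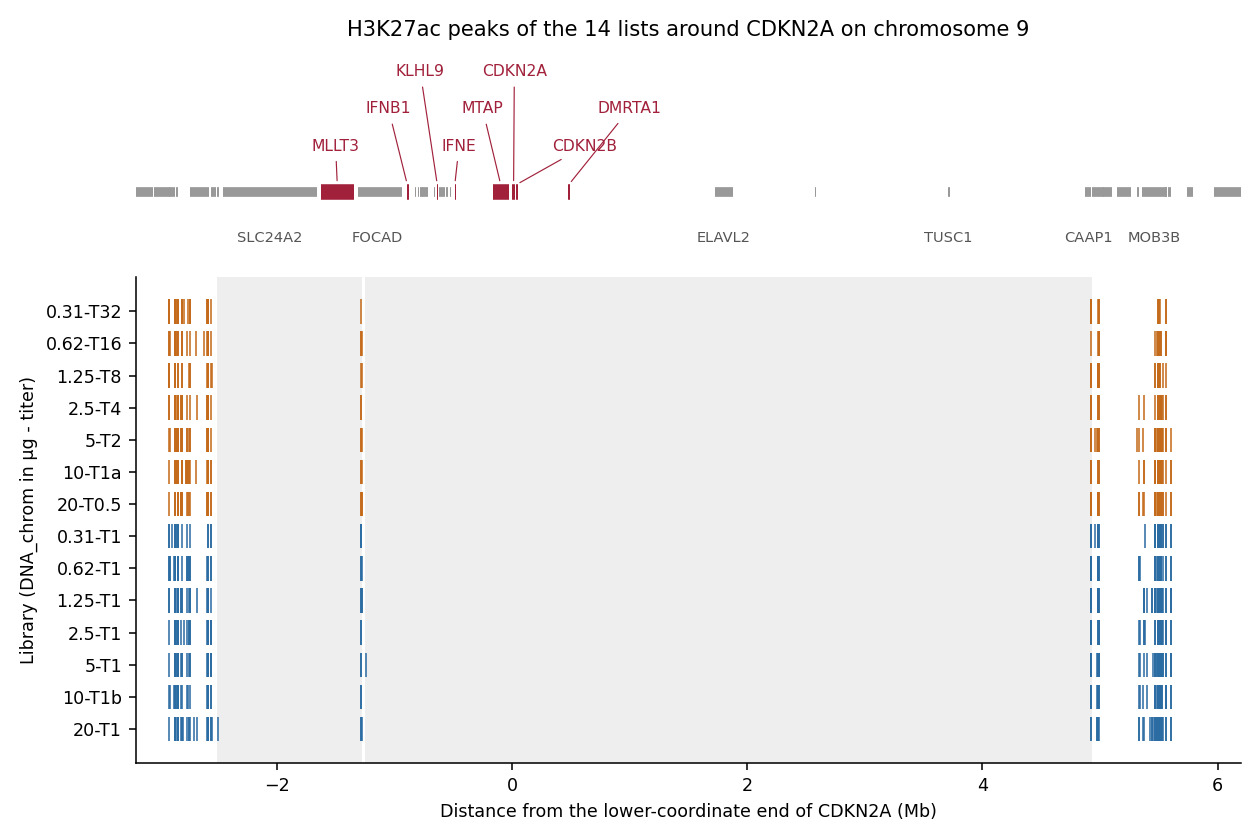
Peaks of the 14 lists plotted by distance from the lower-coordinate end of CDKN2A (Mb, x axis), 1 row per library, fixed-antibody lists in orange and normalized lists in blue, with the 8 genes in red and other protein-coding genes in gray above. The shaded spans of 6.17 and 1.22 Mb hold no peak in any list, and a narrow group of peaks in FOCAD separates them.

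The distance to the nearest peak differed among the genes by their place in the span. DMRTA1 was farthest from a peak on its nearer side, with the nearest peak 1.72 Mb below it and 4.43 Mb above it. For CDKN2B the distances were 1.28 and 4.88 Mb and for CDKN2A, as above, slightly less and slightly more. For MTAP they were 1.08 and 4.95 Mb. IFNE, KLHL9 and IFNB1 were nearer to the left edge, at 0.759, 0.607 and 0.355 Mb. MLLT3 was the nearest to any peak, with 0.0609 Mb between its higher-coordinate end, where it starts, and the first FOCAD peak, and 0.877 Mb on the other side.

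The genes fall in the order MLLT3 (chr9:20341669-20622499), IFNB1 (chr9:21077104-21077942), KLHL9 (chr9:21329665-21335404), IFNE (chr9:21480839-21482313), MTAP (chr9:21802636-21941115), CDKN2A (chr9:21967752-21995324), CDKN2B (chr9:22002903-22009313) and DMRTA1 (chr9:22446824-22455740). The span around CDKN2A held 25 protein-coding genes whole, of which the first by position were HACD4, IFNB1, IFNW1, IFNA21, IFNA4 and IFNA7. It also held 29 long non-coding RNA genes, among them CDKN2B-AS1, a transcript antisense to CDKN2B, and MIR31HG, the host of the 1 miRNA gene in the span, MIR31. A further 24 pseudogenes, 2 snoRNA genes and 1 transcribed pseudogene lay there. The span around MLLT3 held SLC24A2 and MLLT3 and no other protein-coding gene whole.

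The left edge of the CDKN2A span lay inside FOCAD, which encodes focadhesin. Between the spans, 38898 bp held 4 merged peak regions. The region at the FOCAD start site, chr9:20684268-20685894, was found in all 14 lists. Its fold enrichment, the authors' value for the strongest peak, was 8.51 in the lowest list (0.31-T32), 11.7 at the median and 15.99 in the highest (20-T0.5). A region just before this start site, chr9:20683415-20684061, was found in 11 lists, and one after it, chr9:20692374-20693391, in 8 lists. The last region before the span, chr9:20722112-20722312, came from 5-T1 alone, with a fold enrichment of 3.60. FOCAD is annotated from 20655625 to 20995950, so all 4 regions lie within it, as does the start site used here, 20684259. Its first part lies in the span around MLLT3. No list had a peak between the last region and the end of the gene at 20995950.

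The right edge lay in CAAP1, a gene linked to caspase activity and apoptosis. The region chr9:26888453-26893734, over the higher-coordinate end of CAAP1, was found in all 14 lists. Fold enrichment was 5.27 in the lowest list (0.62-T16), 9.39 at the median and 13.8 in the highest (20-T1). A small region before it, chr9:26888245-26888450, came from 5-T2 alone with a fold enrichment of 4.57. The next region found in all 14 lists, chr9:26945705-26948312, covered the promoters of PLAA and IFT74.

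**Figure D2:**
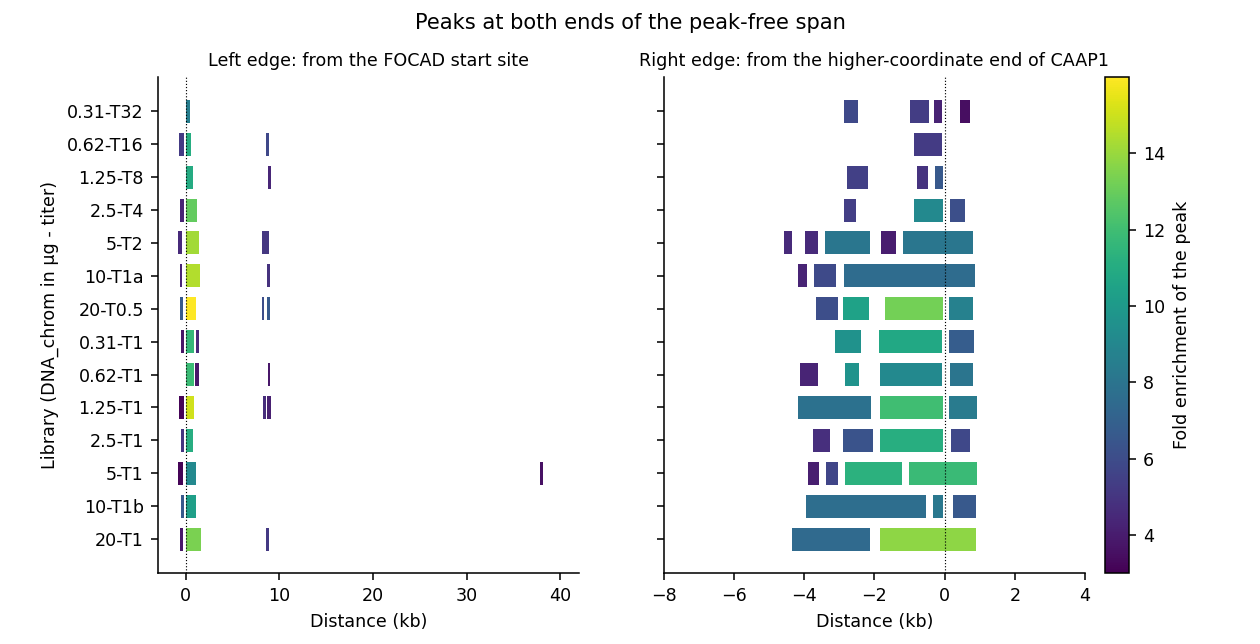
Peaks at the left edge by distance from the FOCAD start site and at the right edge by distance from the higher-coordinate end of CAAP1 (kb, x axes), 1 row per library, colored by fold enrichment. Every library has a peak within 2 kb of the FOCAD start site and at the end of CAAP1, and the farthest peak of the left panel, from 5-T1, stands alone.

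Read list by list, the edges were close to each other. The CDKN2A span was 6166609 bp long in 5-T1 and 6195108 to 6205183 bp in the other 13 lists, the longest in 0.31-T32. The SD of its length over the 14 lists was 9628 bp. Its first base ranged from 20684755 in 0.31-T32 to 20722313 in 5-T1, with an SD of 9430 bp. Its last base ranged from 26888244 in 5-T2 to 26891930 in 0.62-T16, with an SD of 957 bp. The position of the left edge rests on 5-T1, since without this library the span over the other lists began at 20693392 and was 6194853 bp long. The MLLT3 span was 1218725 bp in 20-T1, 1269645 bp in the titer 8 library and 1272763 to 1275011 bp in the other 12 lists. At its left edge a region in ACER2, chr9:19408970-19410651, was found in all 14 lists, and the edge over all lists was set by a single region of 20-T1, chr9:19464690-19464916, with a fold enrichment of 3.70.

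The length of the CDKN2A span and the number of genes in it were compared with other peak-free spans of the genome. Of 3983 spans of at least 100 kb, 497 reached 1 Mb and 18 reached 5 Mb, and that around CDKN2A ranked 11 by length and 9 by the number of protein-coding genes. On chromosome 9 it was second to the span across the centromere, chr9:41657507-61572138. Only 2 spans were at least 6.17 Mb long and held at least 25 genes, itself and chr11:50299632-57071874 with 50 genes, which includes the centromere of chromosome 11. Both limits are the values of the CDKN2A span itself. The span chr7:56123764-64306008 was longer, at 8.18 Mb, and held 22 genes. The span around MLLT3 ranked 383 by length. On the short arm of chromosome 9 below 40 Mb there were 8 spans of at least 1 Mb, and the 7 others held 1 to 4 genes each. Of the 25 genes in the CDKN2A span, 16 are type I interferon genes, so its rank by genes rests largely on 1 gene family. These ranks are a description, since spans include centromeres and unassembled sequence and gene-poor stretches.

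**Figure D3:**
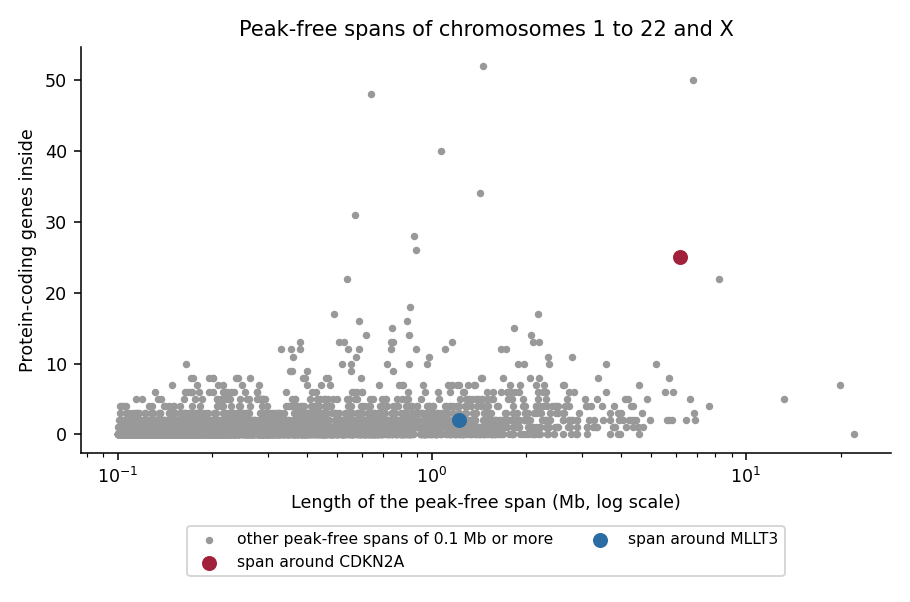
Peak-free spans of at least 0.1 Mb over all 14 lists, by length (Mb, log scale, x axis) and number of protein-coding genes inside (y axis). The span around CDKN2A (red) lies at 6.17 Mb and 25 genes, and that around MLLT3 (blue) at 1.22 Mb and 2 genes among the many spans with few genes.

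The promoters of the 8 genes were next compared with promoters of similar base composition. The CpG ratio is the number of CG dinucleotides over the number expected from the C and G content of a promoter, taken here as the 250 bases before and 50 bases after a start site. A promoter with at least 50% GC and a ratio of at least 0.6 is called island-like here, since CpG islands are the usual form of promoters of broadly active genes. Of 22132 promoters, 49.2% had a peak within 1 kb in all 14 lists and 37.8% had none in any list. Among the 13283 island-like promoters these shares were 68.4% and 21.1%, and among the 8849 others 20.3% and 62.8%.

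The 8 genes had 9 promoters in the table, all without a peak within 1 kb in any list, and 6 of them, from 5 genes, were island-like. The upstream CDKN2A promoter, that of ARF, had a CpG ratio of 1.13, higher than 97.9% of all promoters. In its bin of ratio, 1.1 to 1.2, 80.4% of 555 promoters had a peak in all 14 lists and 11.7% had none. The downstream CDKN2A promoter had a ratio of 0.764, and those of CDKN2B, MTAP and MLLT3 had 0.736, 0.715 and 0.714. In their bin, 0.7 to 0.8, 25.4% of 2837 promoters had no peak in any list. The KLHL9 promoter had a ratio of 0.686, in a bin where 35.2% had none. The promoters of DMRTA1, IFNE and IFNB1 were not island-like, at 0.549, 0.312 and 0.111, and the share without a peak in their bins was 44.1%, 63.0% and 71.6%. FOCAD, with a ratio of 0.892, had a peak within 1 kb in all 14 lists.

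**Figure D4:**
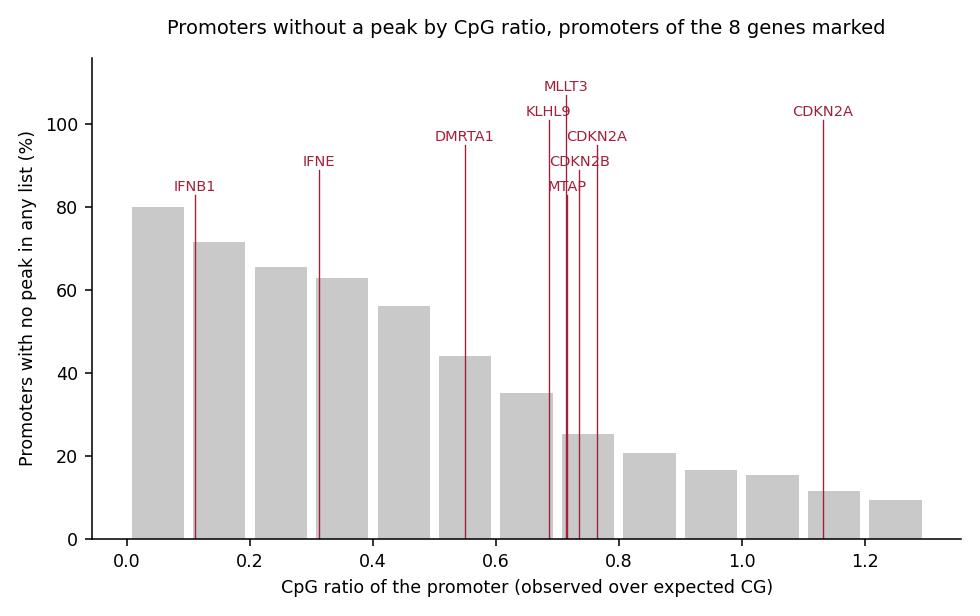
Share of all promoters with no peak within 1 kb in any of the 14 lists (%, y axis) by bins of the CpG ratio (x axis), with red lines at the ratios of the 9 promoters of the 8 genes. The share falls from 80.1% in the lowest bin to 9.45% in the highest, and CDKN2A has the promoter of the highest ratio among the 8 genes, 1.13.

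Inside the CDKN2A span there were 28 promoters, of which 12 were island-like. They belonged to 7 genes, HACD4, KLHL9, MTAP, CDKN2A, CDKN2B, TUSC1 and ELAVL2, the last of which supplied 5 neighbouring start sites. No other peak-free span of at least 100 kb held more than 12 island-like promoters, and 1 other held as many. Of the 3983 spans, 2711 held none. Both promoters in the MLLT3 span, of SLC24A2 and MLLT3, were island-like, and 527 spans held at least 2.

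A set of 18 other protein-coding genes of the same arm, listed by symbol, was read in the same lists and is called the flanking genes here. The set left out other genes of this stretch, such as IZUMO3 and IFNK. Of the 18 genes, 4 (SLC24A2, HACD4, ELAVL2 and TUSC1) lie inside a span and so have no peak by construction. ACO1 lies 5.50 Mb beyond the right edge. Of the 18, 11 (61.1%) had a peak in all 14 lists, near the 61.4% of all protein-coding genes. Of the 14 that are not inside a span, 11 (78.6%) did. This second share is raised by construction, since genes inside a span were left out for having no peak. FOCAD and CAAP1 also hold the peaks that set the edges of the CDKN2A span. The 11 genes were HAUS6, PLIN2, DENND4C, RPS6 and ACER2 on the lower side, FOCAD between the spans, and CAAP1, PLAA, IFT74, MOB3B and ACO1 on the higher side. C9orf72 had one in 10 lists. Outside both spans, TEK, an endothelial receptor, and LINGO2 had none. The median fold enrichment of the strongest peak was 11.6 at RPS6, a ribosomal protein gene, 13.3 at DENND4C, a regulator of RAB GTPases, and 10.9 at MOB3B. Windows of neighbouring genes overlap, so the 11 genes do not have 11 separate sets of peaks. The strongest peak had the same fold enrichment at RPS6 and DENND4C in every fixed-antibody list, and at PLAA and IFT74 in most lists. At FOCAD the strongest peak had a median percentile of 94.7 among the peaks of its own list, and at CAAP1 of 87.3.

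The summed peak length of the flanking windows varied with titer and DNA_chrom, while the windows of the 8 genes had 0 peaks throughout. Peaks covered 15.2 kb of the windows of the 18 flanking genes in 0.31-T32, 21.3 kb in 0.62-T16, 21.1 kb in the titer 8 library, 31.5 kb in 2.5-T4, 50.6 kb in 5-T2, 55.6 kb in 10-T1a and 51.7 kb in 20-T0.5. In the fixed-antibody arm the covered length was thus lowest at the highest titer, with Pearson's r of -0.94 against log2 titer (exact permutation test over 5040 pairings, n = 7, two-sided p = 0.00238, Benjamini-Hochberg adjusted p = 0.00714 over 3 tests) and Spearman's rho of -0.93 (exact permutation p = 0.00675). With the libraries of the 2 most distant titers left out, r was -0.96 (exact permutation p = 0.0333). In the normalized arm the covered length was 44.5 kb in 0.31-T1, 52.9 kb in 0.62-T1, 61.7 kb in the library of 1250 ng, 59.7 kb in 2.5-T1, 63.0 kb in 5-T1, 59.2 kb in 10-T1b and 71.99 kb in 20-T1. It rose with log2 DNA_chrom, with r of 0.87 (exact permutation p = 0.00952, adjusted p = 0.0143), while rho was 0.75 (exact permutation p = 0.0663). This relation rests on the end libraries, since without the 2 farthest from the median r was 0.56 (exact permutation p = 0.367). It also missed the threshold on a linear scale, where r was 0.76 (exact permutation p = 0.0512).

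At matched DNA_chrom the normalized library covered more in 6 of 6 pairs that differ in titer. The fixed-antibody titer was above 1 in these pairs except at 20 µg, where it was 0.5. The difference of that pair was 20.3 kb, against 12.4 kb at 5 µg, where the fixed-antibody titer was 2. The 6 pairs thus do not run in 1 direction of titer. The mean was 59.0 kb in the normalized and 31.9 kb in the fixed-antibody libraries, a difference of 27.1 kb (exact sign-flip permutation test over 64 patterns, two-sided p = 0.03125, the smallest it can give, adjusted p = 0.03125). The titer 1 libraries at 10 µg, 10-T1a and 10-T1b, differed by 3.61 kb. MOB3B supplied much of these lengths, since its window alone held 2.59 kb in 0.31-T32, 23.9 kb in 10-T1a and 35.3 kb in 20-T1. Without it, r was -0.92 against log2 titer (exact permutation p = 0.00714) and 0.90 against log2 DNA_chrom (exact permutation p = 0.00298). The matched means were then 31.3 kb in the normalized and 21.4 kb in the fixed-antibody libraries, a difference of 9.98 kb with the normalized library higher in 6 of 6 pairs (exact sign-flip permutation p = 0.03125). The covered length of the whole list also rose, from 32.8 Mb in 0.31-T32 to 65.3 Mb in 10-T1a. In the normalized arm it was 54.4 Mb in 0.31-T1, 72.9 Mb in 20-T1 and highest in 5-T1, at 75.3 Mb. The normalized library covered more of the genome in each matched pair, as at 20 µg, with 72.9 against 63.4 Mb. Neither the rises nor the matched difference were thus confined to 9p. The flanking windows rose more than in proportion, from 0.0465% of the whole covered length in 0.31-T32 to 0.0851% in 10-T1a. These were the lowest and highest shares of the fixed-antibody lists, and normalized lists had 0.0814% to 0.0987%. Whether the larger rise is particular to 9p was not tested. The same tests were planned for MLLT3 and gave no value, because its window had no peak in any library.

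**Figure D5:**
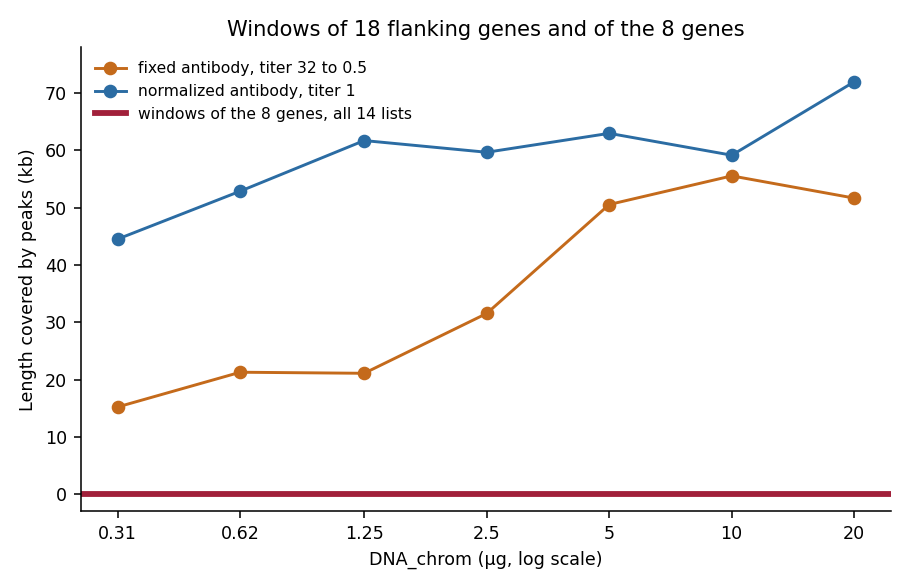
Length covered by peaks (kb, y axis) in the windows of the 18 flanking genes by DNA_chrom (µg, log scale, x axis), 1 point per library, with the fixed-antibody arm in orange and the normalized arm in blue. The flanking windows run from 15.2 to 71.99 kb, and the red line marks the windows of the 8 genes, at 0 in all 14 lists.

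Genes of the pathways of the 8 genes were read across the genome. Of 17 type I interferon genes on 9p, 16 (IFNB1, IFNE, IFNW1 and 13 IFNA genes) lie inside the CDKN2A span, so that their lack of peaks restates the span. IFNK, the 1 outside it, had a peak in all 14 lists, in a window that also holds MOB3B. All 9 genes of interferon receptors and signalling had a peak in all 14 lists, led by JAK1, IRF9 and STAT2, with median percentiles of 95.5, 94.2 and 94.0 among the peaks of a list. The background of 61.4% of all genes with a peak in all lists applies to each of these counts.

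The pathways in which the CDKN2A products act were read next. In the CDK4/6 and RB pathway, 14 of 15 genes had a peak in all 14 lists and CDKN1A (p21) in 13. Of all protein-coding genes, 61.4% had one in all 14. By median percentile the highest were the related inhibitors CDKN2C (p18INK4c), with a percentile of 99.5 and a median fold enrichment of 18.7, and CDKN1B (p27), with 99.4 and 18.9, and then E2F3, with 97.3 and 14.5. CDK4 itself had a median fold enrichment of 15.4. MDM2, its relative MDM4 and NPM1, a nucleolar protein that binds ARF, each had a peak in all 14 lists, and MDM2 had a median fold enrichment of 17.1 and a percentile of 98.6.

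Methionine salvage and polyamine genes, the pathway of MTAP, had a peak in all 14 lists at 11 of 11. The share over all protein-coding genes was 61.4%. MAT2A, which makes S-adenosylmethionine, had a median fold enrichment of 21.4 and a percentile of 99.9, and ODC1 and ENOPH1 had percentiles of 98.9 each. PRMT5, the arginine methyltransferase that methylthioadenosine inhibits, had a median fold enrichment of 11.6. Of the super elongation complex and DOT1L complex, partners of MLLT3, 12 of 13 had a peak in all 14 lists and ELL3 in 13. The same background of 61.4% applies. The paralog MLLT1 (ENL) had a median fold enrichment of 12.9, and the highest percentiles were those of MLLT10 (99.2), DOT1L (98.3) and CDK9 (98.2).

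Of 5 genes that act with KLHL9 in the CUL3 ligase, its substrate AURKB included, 4 had a peak in all 14 lists, with CUL3 at a percentile of 98.0, KLHL21 at 97.4 and RBX1 at 93.6. KLHL13, the close relative of KLHL9 on chromosome X, had one in 5 lists. Among all protein-coding genes, 61.4% had one in all 14. Of 6 other DMRT family genes, DMRT1, DMRT2, DMRT3, DMRTA2 and DMRTB1 had no peak in any list. DMRTC2 had one in all 14, in a window that also holds RPS19 and LYPD4. Over all protein-coding genes, 25.5% had no peak in any list. DMRT1, DMRT2 and DMRT3 lie together at the far end of 9p, so the 5 genes are not 5 separate loci. DMRTA2 and DMRTB1 are on chromosome 1. Whether the lack of peaks is a trait of the family was not tested.

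Marker genes were read in the same windows, where 61.4% of all protein-coding genes had a peak in all 14 lists and 25.5% had none. All 10 erythroid and K562 markers, among them GATA1 with a median fold enrichment of 19.2, KLF1 with 16.5 and NFE2 with 16.5, had a peak in all 14 lists. Of the lymphoid markers reported, CD79A and CD2 had a peak in all 14 lists, CD3E in 12 and PAX5 in 0. The window of CD79A also holds ARHGEF1 and RPS19, while those of CD2 and CD3E hold no other protein-coding gene. Of 5 fibroblast and epithelial markers, COL1A2, KRT5 and KRT14 had no peak in any list, and COL1A1 and CDH1 had one in all 14, in windows that also hold SGCA for COL1A1 and CDH3 and TANGO6 for CDH1. The part of other cells in the peaks of these windows was not tested.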

How the data were processed

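H3K27ac ChIP-seq peaks of K562 were read from 14 lists, 1 per ChIP library. The 2 input libraries have no list and were not analysed here. Per the labels, the authors used CASAVA 1.4, BWA 0.5.9 and hg38, and the paper's methods name MACS2 in Partek Flow with hg19. Positions were read as GRCh38. Peaks were called separately in each library. For each peak the authors deposited a position, a summit offset, a score, a fold enrichment (a ratio over input) and a p-value and a q-value, both as -log10. The score, the p-value and the summit did not enter any main value. Lists reach down to a -log10 q of 1.30, and peaks of at least 2 were used.

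The 8 genes, the gene lists and the rule for named genes (all 8 genes, 18 flanking genes, and from each list those without a peak and the 3 of highest median percentile) were chosen with earlier results of these data known; CDK4, PRMT5 and MLLT1 were named for their roles. Genes and promoters came from RefSeq tables of GRCh38.p14, in which all 8 genes were matched. Some genes of these lists are not reported here. Peak-free spans were taken over all lists merged. Island-like promoters per span were counted after the span had been seen. Covered length was tested by exact permutation tests, and 3 of 12 planned tests had a value. Libraries were paired across the arms by the amount of DNA_chrom in the labels, without the 10 µg pair, which has the same titer in both arms. Functions were tested on simulated data. Python 3.11.15, numpy 2.4.6, scipy 1.17.1 and matplotlib 3.10.9 were used. Alternatives were other q-values, window sizes, a summit rule, 1 arm, edges in several lists, linear scales, no pairing and leaving out each library.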

Additional observations from a re-analysis of the deposited data

Results flagged for a closer look

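A single library stood apart in 3 of 14 groups of 7 examined for a lone value (gap to the nearest library over the range, critical value 0.568), and chance gives about 1 in 20. In the normalized arm, 5-T1 had the shortest span around CDKN2A, 6166609 bp, because of 1 weak peak inside FOCAD. In the fixed-antibody arm, the titer 8 library had the shortest span around MLLT3, 1269645 bp. In the normalized arm, 20-T1 had the shortest span around MLLT3, 1218725 bp, because of 1 peak beyond ACER2. Each of these peaks lies outside the windows of the 8 genes, which had 0 peaks in these libraries too.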

How the results depend on the processing

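The number of the 8 genes without a peak was 8 in each alternative run, including windows of 50 kb, the gene body alone, stricter q-values, the full lists and each library left out. Of 167 alternatives over all results, 146 kept the direction and the call, or for values and counts the size, 9 lost the call and 12 moved. The 146 include the runs whose outcome was fixed in this way, so their number is not a measure of robustness. The left edge moved from 20722313 to 20693392 with a -log10 q of at least 3, with edge regions required in at least 2 or at least 7 lists, and to 20693237 with a -log10 q of at least 5 and 20693256 in the fixed-antibody lists alone. The span was then 6194853, 6195061, 6195061, 6195216 and 6194989 bp. Leaving out each library gave left edges of 20693392 to 20722313 and lengths of 6165932 to 6194853 bp. The left edge of 20693392 and the length of 6194853 bp are those without 5-T1.

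The trend of the flanking windows with DNA_chrom was 0.76 on a linear scale (exact permutation p = 0.0512). It ranged from 0.78 to 0.95 when each normalized library was left out and lost its call without 0.31-T1 (0.78, exact permutation p = 0.0639) or 20-T1 (0.78, exact permutation p = 0.0653). Leaving out each matched pair gave a difference of 24361 to 30002 bp, always with an exact p = 0.0625, the smallest that 5 pairs allow. Without the pairing (no replicate block) the difference was 27073 bp with an exact permutation p = 0.00866. Leaving out the MOB3B window, an alternative chosen after seeing the data, kept the 3 calls and lowered the matched difference to 9978 bp. The trend with titer kept its call in every alternative run. The planned MLLT3 tests had no value to vary. The lists hold no reads, so copy number, depth and signal below the peak threshold could not be measured, and a weak signal in the windows of the 8 genes was not detectable in lists of called peaks.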
